A study of Mus musculus with 10 samples.

Results

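Transcripts of 9 genes of the Notch pathway were followed in RNA sequencing libraries of mouse splenic macrophages: the receptors Notch1, Notch2 and Notch4, the ligands Dll1, Dll4 and Jag1, the nuclear effector Rbpj and the targets Hes1 and Dtx1. They were chosen by name among the 55414 genes of a read count table, with the counts of the knockout and wild-type libraries already known, so their differences between genotypes are given as a description. All 9 had enough reads to pass the filter on low counts. The series compared 5 libraries labelled Fpr2KO with 5 libraries labelled C57BL/6N (wild type, WT). Splenic macrophages had been isolated on F4/80 beads; F4/80 is a macrophage surface antigen of the mouse. The deleted gene, Fpr2, codes for a receptor through which myeloid cells sense formyl peptides and other ligands. Age, sex, the design of the allele and the strain background of the Fpr2KO mice are not in the labels. Nor is it stated there that each replicate is a different animal. The p-values therefore weigh the difference between groups against the spread among these samples within a group, and that spread may be technical.

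Notch receptors are single-pass membrane proteins that are activated by ligands on a neighbouring cell. Ligand binding exposes the receptor to cleavage by ADAM proteases and then by gamma-secretase, and the freed intracellular domain enters the nucleus, where it joins the DNA-binding protein Rbpj and coactivators of the Mastermind family. Without it, Rbpj works with corepressors. In spleen, signals from stromal Dll1 to Notch2 are needed for marginal zone B cells and for a subset of dendritic cells, and Dtx1 is a known Notch target in lymphocytes.

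Counts per library summed to between 15865820 and 19060188, and the test covered 14669 genes. Fpr2 had 0 reads in each of the 5 Fpr2KO libraries and 1983 reads over the 5 WT libraries, which matched the labels. The macrophage label was checked against 14 markers of red pulp macrophages: all 14 were detected, and their summed level lay between 9352 and 11784 CPM (read counts scaled to the normalised library size) in Fpr2KO and between 9179 and 12116 CPM in WT. Adgre1, which encodes F4/80, averaged 525 CPM in Fpr2KO and 524 CPM in WT. The preparations also held RNA of other cells: 10 B cell markers summed to between 3246 and 4414 CPM in Fpr2KO and between 2455 and 3697 CPM in WT. Cr2, a gene of B cells, averaged 681 CPM in Fpr2KO and 644 CPM in WT. Summed levels of 6 plasma cell markers lay between 2415 and 6447 CPM in Fpr2KO and between 2828 and 6128 CPM in WT. Those of 12 erythroid markers lay between 4687 and 11052 CPM in Fpr2KO and between 1656 and 6638 CPM in WT. Detection of the macrophage markers therefore gives no measure of purity. In such bulk samples, fewer cells of a type and less RNA per cell cannot be told apart.

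The promoters of the members were read from RefSeq windows of the GRCm38.p6 build that run from 250 bases before to 50 bases after an annotated start. They were searched on both strands for the core of the Rbpj site, TGGGAA, and for the N box, CACNAG, a sequence bound by Hes proteins. Windows were matched for 8 of the 9 members, all but Hes1, and numbered 10, since Dll1 and Rbpj have a pair each. The Rbpj core was present in the windows of 1 member, Rbpj itself, and in 28.3% of all 27025 genes with a window. The first Rbpj window holds it at 149 bases before the start on the plus strand of the gene and at 65 bases before it in the reverse direction. The N box was present in 5 members (Notch1, Notch2, Dll1, Dll4 and Dtx1) and in 46.1% of all genes with a window. In Dll1 it lay only in the second window, whose last bases, unlike those of the other windows, matched no annotated transcript of the gene. In Notch1 it occurred 3 times, of which a pair overlaps in the palindrome at the start site. The first of the Rbpj windows (chr5:53590096-53590395, plus strand) is shown with the Rbpj cores in capitals, as the gene that carries them. The Notch1 window (chr2:26503773-26504072, minus strand) and the Dtx1 window (chr5:120711620-120711919, minus strand) are shown with the N boxes in capitals, as the member with the largest difference between genotypes and the member with the highest level. A match describes the letters of a window and does not show that a protein binds there.
Rbpj: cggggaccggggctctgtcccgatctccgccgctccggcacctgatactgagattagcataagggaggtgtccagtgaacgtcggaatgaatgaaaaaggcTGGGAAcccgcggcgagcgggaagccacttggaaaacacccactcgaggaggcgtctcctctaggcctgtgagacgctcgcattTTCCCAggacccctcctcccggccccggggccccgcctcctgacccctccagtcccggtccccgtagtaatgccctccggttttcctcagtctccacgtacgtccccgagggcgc
Notch1: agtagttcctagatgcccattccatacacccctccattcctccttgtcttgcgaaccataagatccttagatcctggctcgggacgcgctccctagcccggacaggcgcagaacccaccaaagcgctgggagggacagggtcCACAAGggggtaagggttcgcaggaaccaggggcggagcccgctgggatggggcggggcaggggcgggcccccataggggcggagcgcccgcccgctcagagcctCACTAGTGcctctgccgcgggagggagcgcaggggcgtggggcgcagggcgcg
Dtx1: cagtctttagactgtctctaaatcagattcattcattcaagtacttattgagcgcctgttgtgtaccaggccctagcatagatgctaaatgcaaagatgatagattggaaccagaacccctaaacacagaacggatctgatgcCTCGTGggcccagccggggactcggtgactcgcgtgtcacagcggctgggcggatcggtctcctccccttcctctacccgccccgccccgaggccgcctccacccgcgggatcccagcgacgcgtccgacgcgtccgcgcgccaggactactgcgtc

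Levels were compared between genes per length, as RPKM (the same scaled counts divided by the length of the annotated exons). These levels, and the shares of receptors and ligands below, are those of the whole preparations. Which cells gave each transcript was not tested. Dtx1, an E3 ubiquitin ligase that binds the Notch intracellular domain, had the highest level, with 49.0 ± 9.18 RPKM in Fpr2KO and 42.1 ± 7.59 RPKM in WT (SD, n = 5 each). Hes1, a repressor of the basic helix-loop-helix family, had 32.8 ± 2.35 RPKM in Fpr2KO and 32.6 ± 4.12 RPKM in WT. Notch2 had 27.5 ± 2.21 RPKM in Fpr2KO and 31.7 ± 1.67 RPKM in WT. These 3 genes overlapped in range, and Hes1 lay above Notch2 in 8 of 10 libraries. Rbpj followed at a mean of 5.96 RPKM over all 10 libraries, Notch1 at 4.14, Jag1 at 2.30, Notch4 at 1.08, Dll1 at 0.565 and Dll4 at 0.303. The gap below Notch2 was the widest, with a 4.97-fold ratio of means and no overlap between Notch2 and Rbpj. Notch4 and Dll1 did not overlap either, whereas Rbpj and Notch1, Notch1 and Jag1, Jag1 and Notch4, and Dll1 and Dll4 overlapped in range across libraries. With coding length in place of exon length, Rbpj moved up to the third place and Notch2 to the fourth. The annotated exons of Rbpj sum to 12750 bases and its coding sequence to 1736.

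**Figure D1:**
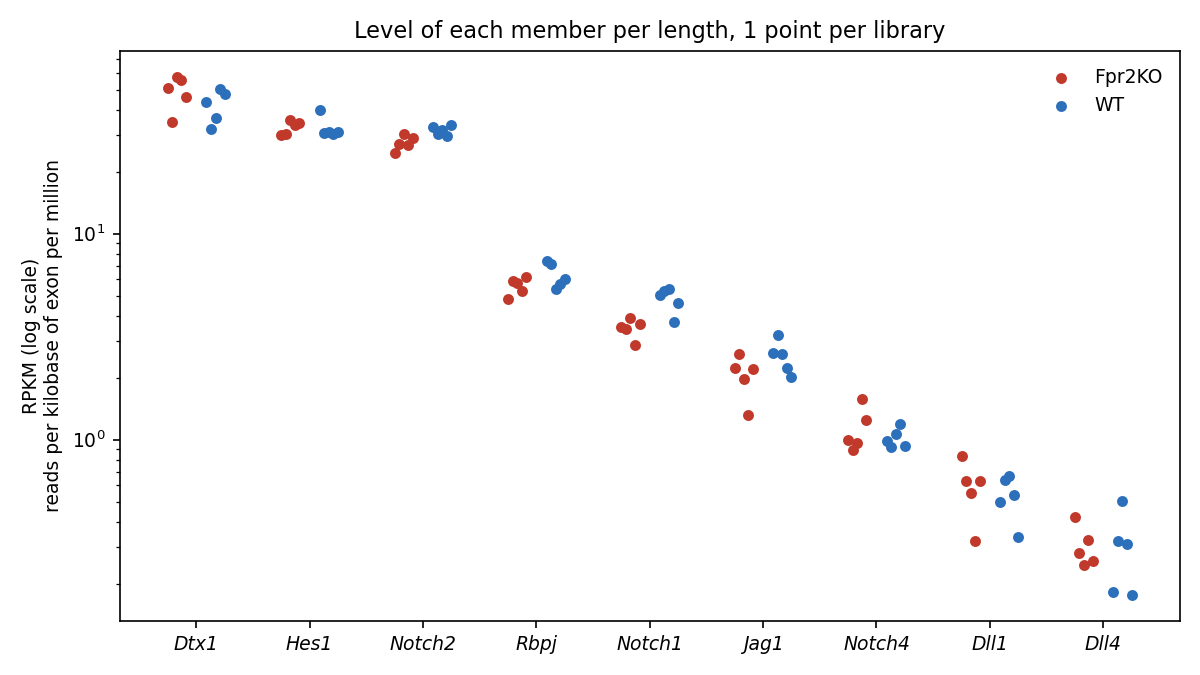
Level per length of the 9 members in RPKM (vertical axis, log scale), with 1 point for each of the 5 Fpr2KO and 5 WT libraries and the genes ordered by their mean over all libraries. Dtx1, Hes1 and Notch2 lie between 24.6 and 57.7 RPKM, above all values of the other 6 genes.

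Among the 4 Notch receptors, Notch2 made up 85.1 ± 0.747% of the summed RPKM in Fpr2KO and 84.1 ± 1.28% in WT (SD, n = 5 each). Notch1 made up 10.8 ± 1.03% in Fpr2KO and 12.7 ± 1.54% in WT, and Notch4 made up 3.52 ± 0.926% in Fpr2KO and 2.72 ± 0.427% in WT. Notch3 was near the limit of detection at 0.186 RPKM in each group. Among the 5 canonical ligands, Jag1 held 61.7 ± 5.35% of the summed RPKM in Fpr2KO and 68.4 ± 3.34% in WT, and Dll1 held 17.6 ± 3.02% in Fpr2KO and 14.3 ± 1.99% in WT. Summed over each class, receptor RPKM exceeded ligand RPKM by between 7.62-fold and 13.5-fold in the 10 libraries.

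Between genotypes, none of the members passed the test (0 of 9 at an FDR, the Benjamini-Hochberg adjusted p, of 0.05 in edgeR), where 0.0682% of all genes tested passed. At an unadjusted p under 0.05, 2 members were counted, Notch1 and Notch2, each with a lower estimate in Fpr2KO, where 4.92% of all genes were counted in that direction and 4.88% in the other. DESeq2 called 1 member, Notch1, where it called 1.09% of all genes, and limma voom called 0 members and 0.0886% of all genes. With no filter on low counts edgeR also called Notch1 alone among the members, where 0.217% of all genes passed, and so it did without WT replicate 4, where 0.175% passed. With a replicate block, for which the labels state no pairing, Notch1 was again the only member called, and 0.436% of all genes passed. Since the members were chosen with these counts known, nothing is read from their share. For 0 of the 9 members did the groups separate without overlap, as 1.39% of all genes did. The members' median log2 fold change (Fpr2KO over WT) was 0.01, the same to 2 decimals as the 0.01 of all genes tested, with 5 estimates above 0 and 4 below.

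**Figure D2:**
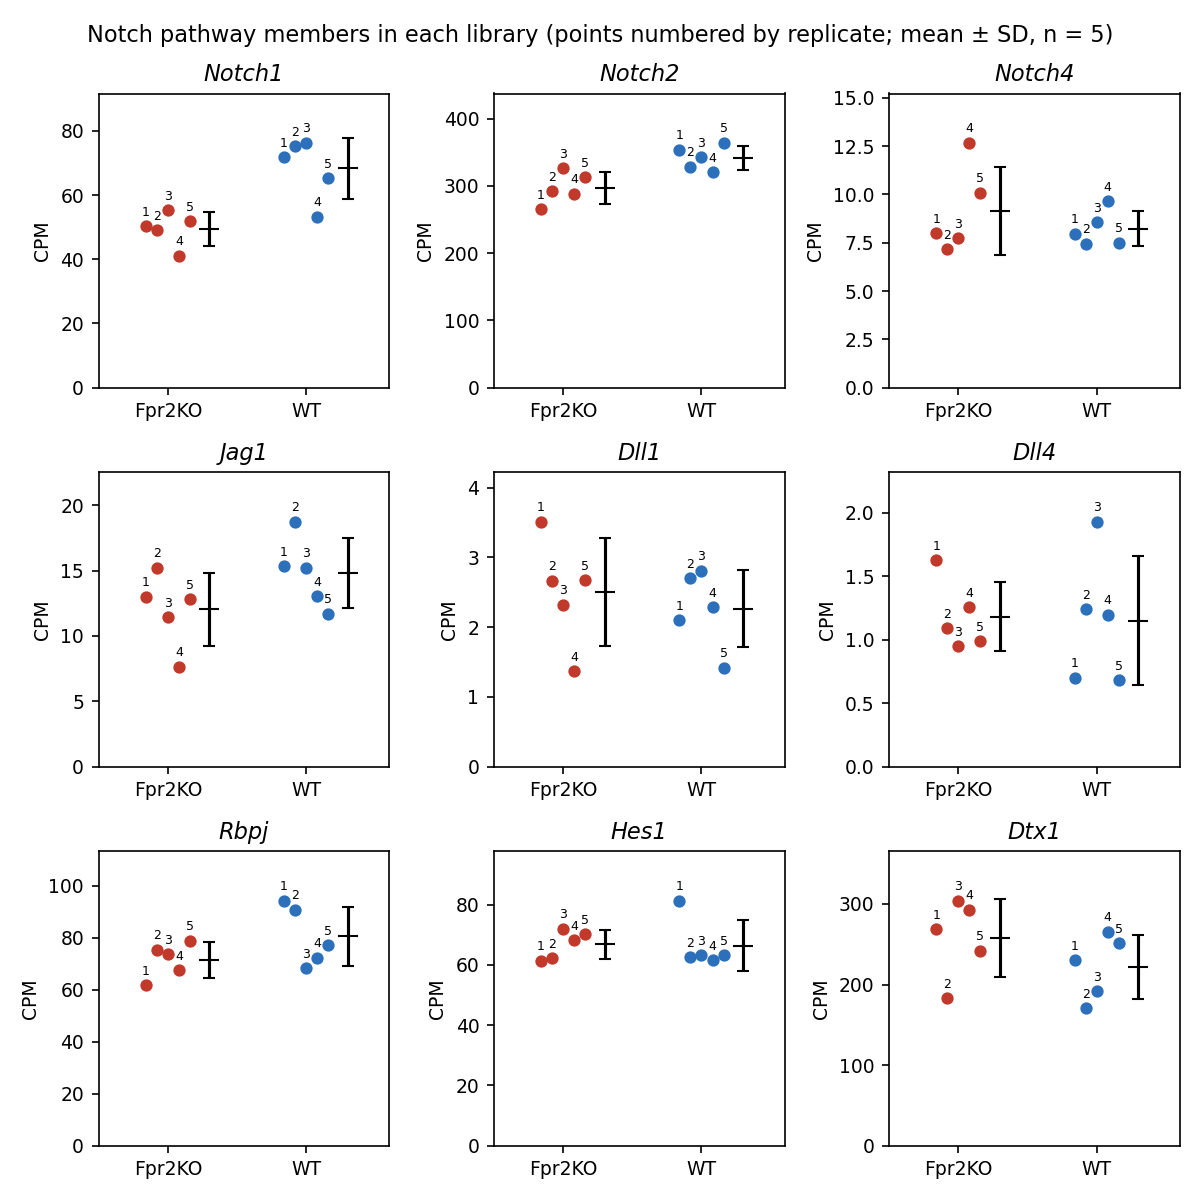
Normalised read count in CPM (vertical axes, starting at 0) of each member in the Fpr2KO and WT libraries, with points numbered by replicate and the mean ± SD of 5 libraries beside them. Notch1 and Notch2 show 4 of 5 Fpr2KO libraries below all WT libraries, and the groups of the other 7 members overlap more widely.

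Notch1, the receptor required for T cell commitment and expressed in several blood lineages, showed the largest difference among the members. Its level was 50.3, 49.0, 55.3, 41.1 and 51.8 CPM in Fpr2KO replicates 1 to 5, against 71.8, 75.1, 76.4, 53.3 and 65.3 CPM in WT replicates 1 to 5. The groups overlapped in a single pair of libraries: Fpr2KO replicate 3 lay above WT replicate 4, the lowest of its group, and the other 4 Fpr2KO libraries lay below all WT libraries. The log2 fold change was -0.47 (SE 0.11, FDR = 0.164 by edgeR). Without WT replicate 4 it was -0.54 and passed (FDR = 0.0389 by edgeR), and it also passed by DESeq2 at -0.48 (FDR = 0.0152) and with no filter on low counts (FDR = 0.0292 by edgeR). Limma voom gave -0.46 (FDR = 0.156). Notch1 (ENSMUSG00000026923) lies on the minus strand of chromosome 2, from 26457903 to 26516663 in GRCm38. Its exons overlap those of the genes 0610009E02Rik and Gm13568 on the opposite strand over 9.76% of their length, and these held 52 and 1 reads in all against 10217 of Notch1.

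Notch2, the receptor that marginal zone B cells depend on, was at 265, 292, 326, 289 and 313 CPM in Fpr2KO replicates 1 to 5, and at 354, 328, 342, 320.3 and 364 CPM in WT replicates 1 to 5. Here too 4 of 5 Fpr2KO libraries lay below all WT libraries, and Fpr2KO replicate 3 lay within the WT range. The log2 fold change was -0.20 (SE 0.08, FDR = 0.424 by edgeR), and with each library left out in turn it stayed between -0.24 and -0.17. Notch2 (ENSMUSG00000027878) is encoded on chromosome 3, from 98013527 to 98150361 in GRCm38. Its exons overlap those of Gm42820 on the same strand over 5.02% of their length. Gm42820 held 147 reads in Fpr2KO and 192 in WT, with a log2 fold change of -0.42, against 55509 reads of Notch2 in all. Notch4, a receptor best known from endothelial cells and encoded in the major histocompatibility complex region of chromosome 17, was at 8.001, 7.15, 7.73, 12.7 and 10.1 CPM in Fpr2KO and at 7.95, 7.46, 8.55, 9.65 and 7.49 CPM in WT. Fpr2KO replicates 4 and 5 lay above all WT libraries and the other 3 among or below them. For Notch4 the log2 fold change was 0.15 (SE 0.16), and 0.01 without Fpr2KO replicate 4.

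Of the ligands, Jag1 was the most abundant. It was at 13.01, 15.2, 11.4, 7.65 and 12.8 CPM in Fpr2KO replicates 1 to 5, and at 15.3, 18.7, 15.2, 13.02 and 11.7 CPM in WT replicates 1 to 5. Fpr2KO replicates 3 and 4 lay below all WT libraries, and the other 3 Fpr2KO libraries lay within the WT range, whose highest value was that of replicate 2. For Jag1 the log2 fold change was -0.30 (SE 0.17, FDR = 0.584 by edgeR). It was -0.18 without Fpr2KO replicate 4 and -0.41 without Fpr2KO replicate 2. The Delta-like ligands were close to the lower end of what these libraries measure. Dll1 had 54, 44, 39, 25 and 54 reads in Fpr2KO replicates 1 to 5, and 33, 50, 48, 40 and 25 reads in WT replicates 1 to 5. Dll4, a ligand of endothelial and thymic epithelial cells, had between 16 and 25 reads per Fpr2KO library and between 11 and 33 per WT library. Their log2 fold changes were 0.14 (SE 0.26) for Dll1 and 0.03 (SE 0.31) for Dll4, each smaller than its SE, so no difference was detected. The estimate of Dll1 was -0.02 without Fpr2KO replicate 1, 0.0035 without WT replicate 5 and 0.30 without Fpr2KO replicate 4, and that of Dll4 was -0.12 without Fpr2KO replicate 1, -0.11 without WT replicate 1 and -0.12 without WT replicate 5. The exons of Dll4 overlap those of Gm14207 on the opposite strand over 5.56% of their length; Gm14207 held 74 reads in all against 202 of Dll4, and the strand setting of the counting is not known here. Dll1 (ENSMUSG00000014773) overlaps A930024N18Rik, which is not among the counted genes, on the opposite strand over 20.55% of its exon length. Without strand, reads from these overlapping stretches cannot be told apart.

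Rbpj, through which all Notch receptors act on transcription, was at 61.6, 75.3, 73.7, 67.5 and 78.9 CPM in Fpr2KO replicates 1 to 5, against 94.2, 90.7, 68.3, 72.2 and 77.0 CPM in WT replicates 1 to 5. WT replicates 1 and 2 stood above all other libraries, and the remaining 3 WT libraries lay within the Fpr2KO range. Its log2 fold change was -0.17 (SE 0.10, FDR = 0.605 by edgeR).

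Hes1, the best known direct Notch target, had almost the same mean in the groups. It was at 61.4, 62.2, 72.1, 68.2 and 70.1 CPM in Fpr2KO replicates 1 to 5, and at 81.4, 62.5, 63.2, 61.7 and 63.3 CPM in WT replicates 1 to 5. In WT, 4 libraries lay within 2 CPM of each other and replicate 1 stood apart. The log2 fold change was 0.01 (SE 0.09), and 0.08 without WT replicate 1. Dtx1 was at 268, 183, 304, 293 and 242 CPM in Fpr2KO replicates 1 to 5, and at 229.9, 170.3, 192, 266 and 251 CPM in WT replicates 1 to 5. Fpr2KO replicates 1, 3 and 4 lay above all WT libraries and replicate 2 near the lowest of them. For Dtx1 the log2 fold change was 0.22 (SE 0.15, FDR = 0.653 by edgeR), with 0.14 without WT replicate 2 and 0.31 without Fpr2KO replicate 2.

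Ratios of CPM between members of the same library do not depend on the scaling of libraries, and 5 were computed. Hes1 over Notch1 was 1.22, 1.27, 1.303, 1.66 and 1.35 in Fpr2KO replicates 1 to 5, and 1.13, 0.832, 0.827, 1.16 and 0.970 in WT replicates 1 to 5, so that the groups did not overlap in this ratio. In the other ratios they overlapped: Notch2 over Notch1 ranged between 5.27 and 7.03 in Fpr2KO and between 4.37 and 6.01 in WT. Dtx1 over Notch2 ranged between 0.627 and 1.02 in Fpr2KO and between 0.519 and 0.829 in WT. Notch2 over Rbpj ranged between 3.88 and 4.43 in Fpr2KO and between 3.62 and 5.02 in WT. Notch4 over Notch1 ranged between 0.140 and 0.309 in Fpr2KO and between 0.0992 and 0.181 in WT. The ratio of Hes1 and Notch1 follows from the member values above and is no separate evidence of a difference. The share of ratios that separate the groups over all pairs of genes was not computed.

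The rest of the pathway was described with 79 genes in 7 lists, of which 70 had enough reads to be tested. Notch3 stands in 2 of the lists, as a receptor and as a target, and is counted once in these totals. By edgeR 0 passed the FDR in either direction, and 0 did by DESeq2 or limma voom. At an unadjusted p under 0.05, 3 had higher and 5 lower estimates in Fpr2KO, 11.4% of those tested, where 9.8% of all genes were counted. The median log2 fold change was -0.06, beside 0.01 over all genes tested, with 24 estimates above 0 and 46 below.

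The coactivators that join Rbpj and the Notch intracellular domain had the lowest median of the 7 lists. Of 8 coactivators tested, 7 had lower estimates in Fpr2KO, with a median log2 fold change of -0.16, and 3 were counted as lower at an unadjusted p under 0.05, where 4.92% of all genes were. The list was singled out for its median, so this count is a description. Maml3, a Mastermind scaffold, averaged 16.7 ± 1.67 CPM in Fpr2KO and 21.3 ± 3.97 CPM in WT (SD, n = 5 each; log2 fold change -0.34, SE 0.13, FDR = 0.413 by edgeR). Crebbp, a histone acetyltransferase used by many transcription factors, averaged 90.3 ± 7.84 CPM in Fpr2KO and 109 ± 19.0 CPM in WT (log2 fold change -0.27, SE 0.11, FDR = 0.443 by edgeR). Without WT replicate 1, the highest library at 140.3 CPM, the estimate of Crebbp was -0.18. In each of these genes all 5 Fpr2KO libraries lay below the WT mean and 3 below all WT libraries. The corepressors that Rbpj binds in the absence of Notch had 11 of 15 estimates below 0 and a median of -0.08. For Fhl1, a LIM-domain protein, the log2 fold change was -0.87 (SE 0.35) at a level of 1.64 ± 0.546 CPM in Fpr2KO and 2.99 ± 1.52 CPM in WT, and for Hdac1, a histone deacetylase, it was 0.16 (SE 0.08).

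The proteases and gamma-secretase subunits that cut the receptor stayed close to 0. All 10 were tested, with estimates between -0.16 and 0.11 and a median of -0.06. For Furin, which cleaves the receptor precursor, the log2 fold change was -0.16 (SE 0.11), and -0.08 without Fpr2KO replicate 2. The 8 glycosylation enzymes tested, which modify the extracellular repeats of the receptor, had estimates between -0.10 and 0.08, with Gxylt1 at -0.10 (SE 0.10) and Eogt at -0.08 (SE 0.08). With single libraries left out, Gxylt1 ranged from -0.17 without WT replicate 4 to -0.06 without Fpr2KO replicate 1 or WT replicate 1, and Eogt from -0.13 without Fpr2KO replicate 2 to -0.03 without Fpr2KO replicate 4. Of the 15 genes of ligand and receptor trafficking, 12 had lower estimates, and the median was -0.07. Itch, a ubiquitin ligase that acts on Notch, averaged 185 ± 20.6 CPM in Fpr2KO and 226 ± 28.5 CPM in WT (log2 fold change -0.29, SE 0.10, FDR = 0.388 by edgeR). Dtx3, a relative of Dtx1, averaged 39.0 ± 5.54 CPM in Fpr2KO and 32.0 ± 2.09 CPM in WT (log2 fold change 0.29, SE 0.10, FDR = 0.388 by edgeR).

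The receptors and ligands that are not members were scarce, as were some members. Over all 10 libraries Jag2 averaged 2.37 CPM, beside 2.39 CPM for the member Dll1 and 1.17 CPM for the member Dll4. Jag2 averaged 2.41 ± 0.424 CPM in Fpr2KO and 2.34 ± 0.440 CPM in WT, and Notch3 1.505 ± 0.250 CPM in Fpr2KO and 1.506 ± 0.370 CPM in WT (SD, n = 5 each). Dll3, Dlk1 and Dlk2 had 3, 18 and 3 reads over all 10 libraries and were not tested. Of the 17 other Notch targets, 13 were tested, 7 with higher and 6 with lower estimates and a median of 0.01. Hes5, a close relative of Hes1, averaged 1.87 ± 0.444 CPM in Fpr2KO and 1.199 ± 0.381 CPM in WT (log2 fold change 0.64, SE 0.27, FDR = 0.463 by edgeR), with all 5 Fpr2KO libraries above the WT mean. For the cell cycle inhibitor gene Cdkn1a (p21) the log2 fold change was -0.39 (SE 0.19). Hes7, Hey2 and Heyl had 44, 18 and 39 reads over all libraries, and Ptcra, a target in thymocytes, had 0 reads.

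**Figure D3:**
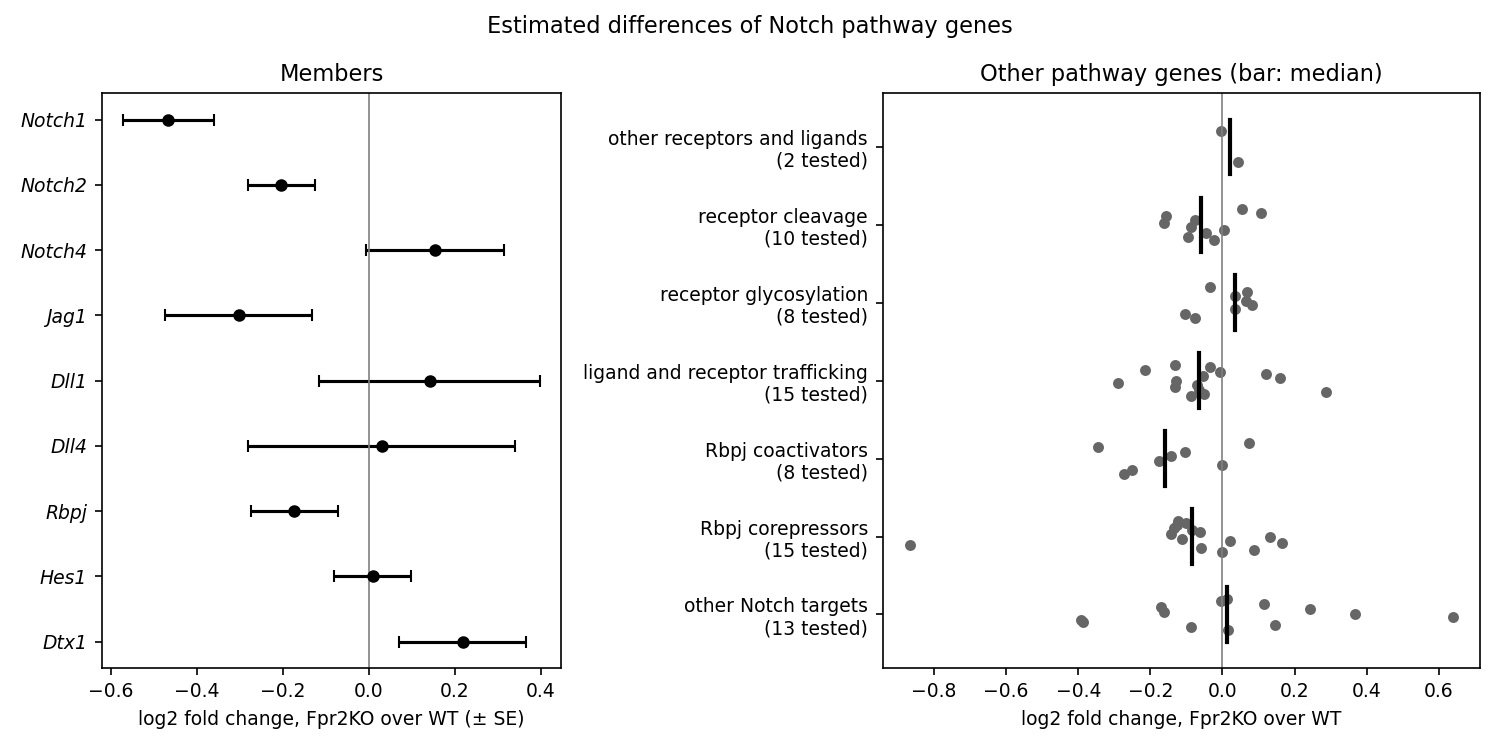
Log2 fold changes of Fpr2KO over WT for the 9 members with their SE (left) and for the 70 other pathway genes tested, by role, with 1 point per gene in each list, Notch3 in 2 of them, and the median as a bar (right). Notch1 lies farthest from 0 among the members at -0.47, and the coactivators of Rbpj have the lowest median of the 7 roles at -0.16.

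Genes listed for splenic cells that depend on Notch2 were set beside the members. The list for B cells includes Ccr7. That for dendritic cells includes Cx3cr1, which is also among the nonclassical monocyte markers. The medians and sums are therefore no measure of Notch2 dependence. Of 8 genes listed for marginal zone B cells, 5 had higher and 3 lower estimates, with a median log2 fold change of 0.05. Their summed levels lay between 1616 and 1873 CPM in Fpr2KO and between 1326 and 1898 CPM in WT. Of 7 genes listed for Notch2-dependent dendritic cells, Dtx1 among them, 2 had higher and 5 lower estimates, with a median of -0.09. By edgeR 0 genes of these lists passed the FDR, and 1 of each list was counted at an unadjusted p under 0.05, which is 12.5% of the first list and 14.3% of the second, near the 9.8% of all genes.

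Other cells in the preparations express members of the pathway, and their markers also differed between libraries. All 10 B cell markers had higher estimates in Fpr2KO, with a median log2 fold change of 0.18 and none at 0 reads. The library with the lowest Dtx1 level, WT replicate 2, also had the lowest B cell sum, at 2455 CPM, and Fpr2KO replicates 3 and 4, with the highest Dtx1 levels, had the highest B cell sums, at 3917 and 4414 CPM. Fpr2KO replicate 2 was low in Dtx1 at a B cell sum of 3650 CPM. All 11 neutrophil markers had lower estimates in Fpr2KO, with a median of -0.65, none at 0 reads and summed levels between 532 and 991 CPM in Fpr2KO and between 938 and 1563 CPM in WT. Fpr2KO replicate 4 was lowest in the neutrophil sum, in Notch1 and in Jag1, and WT replicates 1, 2 and 3 were highest in the neutrophil sum and in Notch1. WT replicates 4 and 5, at 951 and 938 CPM in the neutrophil sum, lay below Fpr2KO replicate 1 at 991 CPM. In Notch1 they lay above it, at 53.3 and 65.3 CPM against 50.3 CPM. With group means subtracted, Pearson's r of log2 levels with the neutrophil sum was 0.74 for Notch1 and 0.76 for Jag1. With the B cell sum it was -0.65 for Notch1 and -0.76 for Jag1. All 9 classical monocyte markers had lower estimates too. Their summed levels lay between 1056 and 1304 CPM in Fpr2KO and between 1410 and 1911 CPM in WT. Of 10 nonclassical monocyte markers, 9 had lower estimates, with a median of -0.25 and summed levels between 2067 and 3001 CPM in Fpr2KO and between 2536 and 3420.2 CPM in WT. A large part of that sum was Nr4a1, at 677 CPM in Fpr2KO and 912 CPM in WT, with the lowest estimate of the list at -0.43. Treml4 is also among the red pulp macrophage markers, so the sum does not measure nonclassical monocytes alone. All 7 platelet and megakaryocyte markers tested had lower estimates, with a median of -0.63, and the list summed to between 43.7 and 58.2 CPM in Fpr2KO and between 53.1 and 75.4 CPM in WT. Erythroid markers, 12 of 12 with higher estimates, summed to between 4687 and 11052 CPM in Fpr2KO and between 1656 and 6638 CPM in WT. Cell cycle genes, 13 of 13 with higher estimates, summed to between 707 and 920.0 CPM in Fpr2KO and between 482 and 760.4 CPM in WT. In each of these lists 0 genes passed the FDR by edgeR, where 0.0682% of all genes passed. At an unadjusted p under 0.05 by edgeR, 12 of 12 erythroid, 11 of 13 cell cycle and 8 of 11 neutrophil genes were counted. The counts were 6 of 9 for classical monocytes, 4 of 7 for platelets, and 3 of 10 each for nonclassical monocytes and B cells. Of all genes 9.8% were counted. The lists were chosen with earlier results known, so these counts are a description. Over all genes tested, 7799 estimates were higher and 6870 lower in Fpr2KO. The part of these other cells in the differences of Notch1, Notch2, Jag1 and Dtx1 was not tested.

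**Figure D4:**
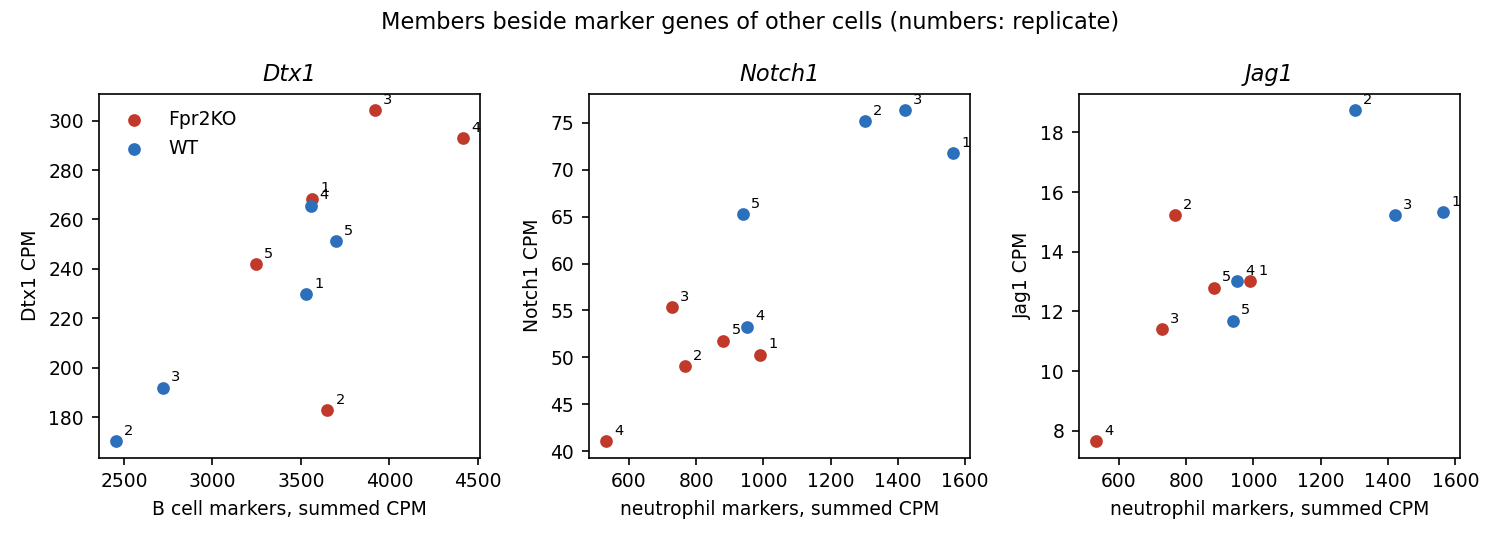
Levels of Dtx1, Notch1 and Jag1 in CPM (vertical axes) against the summed CPM of marker genes of B cells (10 genes) and neutrophils (11 genes) in each library, with points numbered by replicate; the pairs were chosen after their values were seen. Fpr2KO replicate 4 has the lowest neutrophil sum, at 532 CPM, together with the lowest Notch1 and Jag1 levels. WT replicates 4 and 5 lie below Fpr2KO replicate 1 in the neutrophil sum but above it in Notch1.

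Endothelial and stromal cells carry Notch4, Dll4, Dll1 and Jag1 in spleen, and markers of each were detected. The endothelial list summed to between 445 and 500.0 CPM in Fpr2KO and between 429 and 526 CPM in WT. Most of it came from Pecam1, which platelets and leukocytes also express, and from Stab2, while other genes of the list were lower. How much RNA endothelial cells gave to the preparations was not tested. The endothelial cadherin gene Cdh5 averaged 7.14 CPM in Fpr2KO and 9.23 CPM in WT, and the receptor gene Kdr 6.52 CPM in Fpr2KO and 8.43 CPM in WT. Of 12 endothelial genes tested 11 had lower estimates and 0 passed the FDR or an unadjusted p of 0.05 by edgeR, and 0 of the 14 were at 0 reads. The 12 stromal genes summed to between 36.2 and 56.8 CPM in Fpr2KO and between 40.5 and 52.6 CPM in WT, with 0 at 0 reads. All 13 immediate early genes, which respond to tissue handling, had lower estimates in Fpr2KO, with summed levels between 11788 and 15030.1 CPM in Fpr2KO and between 14443 and 21729 CPM in WT. WT replicate 1, the library with the high Hes1 value, had the second highest immediate early sum, at 18550.1 CPM, after WT replicate 3 with 21729 CPM. WT replicate 3 was at 63.2 CPM in Hes1, close to the other WT libraries except replicate 1. With group means subtracted, Pearson's r of Hes1 with the immediate early sum was 0.21 over the 10 libraries. The part of handling in the Hes1 value was not tested.

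Dll1 and Notch4 share chromosome 17 with Fpr2. Dll1 ends 2.51 Mb before the start of Fpr2, and Notch4 lies 16.7 Mb after its end, in GRCm38. Within 5 Mb of Fpr2, 60 other genes were tested: 0 passed the FDR by edgeR, and 2 were counted at an unadjusted p under 0.05, 3.33% where 9.8% of all genes were. Their median log2 fold change was 0.01.

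Genes whose levels followed each member most closely were listed by Pearson's r of log2 CPM over the 10 libraries after subtraction of group means, among the genes whose log2 CPM averaged 3 or more. The 3 closest to Notch1 were Crybg3 (r = 0.97), Kif13b (r = 0.93) and Arrdc4 (r = 0.93), and those closest to Notch2 were Map3k5 (r = 0.95), Hcfc1 (r = 0.95) and Tbcd (r = 0.93). Jag1 was followed by Luzp1, Cd68 and Abcg3, Dll1 by Creg1, Ift57 and Eno1, and Dll4 by Cd5l, Ggct and Maea. Notch4 was followed by Hnrnpd, Ubxn11 and Mri1, Rbpj by Cdc37l1, Dpy19l4 and Dock10, Hes1 by Pip5k1a, Zfp608 and Mirt1, and Dtx1 by Rap1gap, Ppan and Bin1. Each list holds the highest of 9775 or 9776 coefficients, so the coefficients describe these libraries and carry no test. Among the 36 pairs of members the highest coefficient was that of Dll1 and Jag1 (r = 0.84) and the lowest that of Jag1 and Dtx1 (r = -0.77). All points share library preparation and scaling.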

How the data were processed

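RNA was measured in 10 libraries of splenic macrophages, 5 Fpr2KO and 5 WT, made from polyadenylated RNA with a NEBNext Ultra II kit, per the labels' protocols. The authors deposited 1 table of raw, whole-number read counts, with Ensembl identifiers. HTSeq 0.10.0, FastQC 0.10.1 and the builds mm10 and GRCm38 are named in the submitters' processing notes; the sources used here name no aligner, strand setting, treatment of multimapping reads or annotation release. Groups come from the genotype labels. Symbols and lengths came from GENCODE M21 (GRCm38), which matched 52133 of 55414 identifiers; promoter windows came from RefSeq, GRCm38.p6. Each of 20 pairs of libraries within a group differed beyond sampling noise, with a chi-square of 11.2 to 60.9 times its degrees of freedom. No batch is given in the labels.

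All genes were fitted together by edgeR 4.0.16 (R 4.3.3): filterByExpr, TMM, robust quasi-likelihood fit, two-sided glmQLFTest, Benjamini-Hochberg FDR of 0.05. The fit was tested on simulated data. SE is the size of the log2 fold change divided by the square root of F. log2 CPM used a prior count of 2. Alternatives were other normalisations and filters, DESeq2 1.42.0, limma 3.58.1 (voom), a replicate block and leaving out each library. The members and gene lists were chosen with earlier results of these data known. Named were Fpr2, the members, of each pathway list the genes past the FDR and the 2 with the smallest p, and the 3 genes most correlated with each member; 1 gene so named is not reported here, and further genes of lists appear as checks of the samples or with their reads.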

Additional observations from a re-analysis of the deposited data

Results flagged for a closer look

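Of 44 sets of 5 libraries examined (9 members and 13 other named pathway genes, in each genotype), 1 held a library that stood apart from the other 4 by Dixon's criterion, and chance alone flags about 1 in 20 sets. Hes1 was at 81.4 CPM in WT replicate 1, and the nearest WT library was at 63.3 CPM.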

How the results depend on the processing

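The call of Notch1 depended on the processing: its log2 fold change was -0.47 with an FDR of 0.164 by edgeR, and it passed at -0.47 with no filter on low counts, at -0.48 with DESeq2 and at -0.46 with the replicate block. Leaving out 1 library at a time gave values from -0.54 to -0.41 for Notch1, past the FDR without WT replicate 4. Notch2, Jag1 and Rbpj kept a negative estimate and Notch4 and Dtx1 a positive one under all 17 alternatives. Hes1, near 0, was -0.0011 with RLE normalisation and -0.0027 with DESeq2, and between -0.021 and 0.084 when single libraries were left out. Those ranges were -0.016 to 0.30 for Dll1, -0.12 to 0.29 for Dll4, -0.067 to 0.11 for Jag2 and -0.15 to 0.067 for Notch3. Notch3 was 0.013 with upper quartile normalisation, 0.017 with limma voom and 0.0076 with the replicate block. Over all genes, 1 was called higher and 9 lower: 26 and 36 with no filter, 89 and 96 with DESeq2, 3 and 10 with limma voom, and 13 and 51 with the replicate block. Leaving out single libraries gave 0 to 34 higher and 8 to 20 lower, the most higher without WT replicate 5 and the most lower without Fpr2KO replicate 2 or WT replicate 4. Other pathway genes past the FDR stayed at 0 under all 17 alternatives. Same-numbered libraries of the genotypes did not all deviate together (r from -0.35 to 0.44 over 5 pairs, with 2 of 5 best matched to their own number). Neither the labels nor 5 such pairs can settle whether the numbers pair libraries. The cause of these changes was not tested. The estimates of Dll1 and Dll4 rest on 412 and 202 reads in all.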
